A study of Homo sapiens with 9 samples.

Results

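Cytokine survival signalling in T-cell leukemia was described here through 7 genes: the receptor IL7R, the kinase JAK1, the transcription factor STAT5B, the survival genes BCL2 and PIM1, and the feedback inhibitors SOCS2 and CISH. The rule names the genes and uses no measured value, although earlier results of these data were known when the genes were chosen. Each gene was given a window, its span in hg19 (in kb) plus 25 kb on either side. The windows covered 799 kb and held 294 peaks of the 183634 in the 5 peak lists used.

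The peaks were made by CUT&RUN, in which an antibody directs a nuclease to its target and the released DNA is sequenced, in DND-41, an established human line of T-cell acute lymphoblastic leukemia. Cells with no treatment label were profiled for BRG1, for RUNX1 and for H3K4me3, a histone mark of active promoters. H3K27ac, which marks active enhancers as well as promoters, was profiled after 100 nM ACBI-1 (ACBI below) and after its vehicle DMSO. ACBI-1 is a degrader of the SWI/SNF chromatin remodeling ATPases, of which BRG1 (SMARCA4) is a member, and RUNX1 is a transcription factor of blood cells. The length of the treatment is not given in the sources used here. Each target and condition had 1 library of 1 cell line, so differences between DMSO and ACBI are described without a test. The series has 9 samples, and its 4 controls (IgG, or an input by title) were left out.

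Interleukin-7 binds a receptor made of IL7R and the common gamma chain. The bound receptor activates JAK1 and JAK3, which phosphorylate STAT5A and STAT5B, and the STAT5 dimers enter the nucleus and bind DNA at sites of the form TTCNNNGAA. BCL2, PIM1, SOCS2 and CISH are known STAT5 targets: BCL2 blocks apoptosis, PIM1 is a serine/threonine kinase that favours survival and growth, and SOCS2 and CISH dampen receptor signalling. Developing T cells depend on this pathway to survive, and it is active in a share of T-cell leukemias.

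The promoters of IL7R, CISH and PIM1 are printed because they differ in the letters that STAT5 and RUNX1 are known to prefer. Each run is the 250 bases before the gene's start in RefSeq, on the gene's own strand, in GRCh38.p14. These coordinates are not those of hg19, in which all peaks are given.

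IL7R, chr5:35856641-35856890, plus strand, with TGTGGT in capitals: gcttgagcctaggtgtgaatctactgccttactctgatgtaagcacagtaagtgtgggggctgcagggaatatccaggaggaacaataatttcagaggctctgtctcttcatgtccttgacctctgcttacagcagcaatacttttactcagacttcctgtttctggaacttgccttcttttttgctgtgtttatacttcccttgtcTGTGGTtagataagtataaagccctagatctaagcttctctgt

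CISH, chr3:50611775-50612024, minus strand, with TTCNNNGAA in capitals: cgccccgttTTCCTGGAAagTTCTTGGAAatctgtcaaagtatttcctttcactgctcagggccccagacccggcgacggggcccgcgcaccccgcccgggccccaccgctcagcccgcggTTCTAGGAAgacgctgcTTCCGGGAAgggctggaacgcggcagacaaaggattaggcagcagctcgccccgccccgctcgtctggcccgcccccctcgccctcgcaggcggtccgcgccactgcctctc

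PIM1, chr6:37169902-37170151, plus strand, with none of the motifs searched: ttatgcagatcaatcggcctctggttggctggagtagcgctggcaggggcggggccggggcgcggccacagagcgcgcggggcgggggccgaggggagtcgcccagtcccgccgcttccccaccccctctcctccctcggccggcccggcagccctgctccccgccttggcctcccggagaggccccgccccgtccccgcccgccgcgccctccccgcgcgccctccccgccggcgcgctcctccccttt

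The motifs searched on both strands were TGTGGT and TGCGGT, the letters RUNX factors bind, TTCNNNGAA for STAT5 and TGGGAA for RBPJ, the DNA-binding partner of NOTCH1. The CISH promoter held 4 matches to TTCNNNGAA, 241, 230, 129 and 112 bases before the start, and 6.57% of the 35116 RefSeq promoters of the same length held at least 1. The IL7R promoter held 1 TGTGGT, 43 bases before the start, a motif found in 11% of promoters. The other motifs had shares of 5.84% for TGCGGT and 20.8% for TGGGAA. Promoters were found for 6 of the 7 genes, and those of JAK1, STAT5B, BCL2 and PIM1 held none of the 4 motifs. Base composition also differed, with 43.6% G and C in the IL7R promoter, 68.8% in that of CISH and 79.6% in that of PIM1. A match is a description of the letters and not a shown binding site.

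The whole H3K27ac list was shorter after ACBI: 52967 peaks covered 70.8 Mb, against 90495 peaks and 127 Mb in DMSO, a ratio of covered length of 0.556. The lists hold positions only, so depth and the height of H3K27ac within a peak are unknown. A shallower or noisier library gives fewer and narrower peaks. The part of depth in the differences described for these genes was not tested. A DMSO peak was counted as lost where no ACBI peak overlapped it by at least 1 bp, and an ACBI peak as gained in the reverse case. The gene start was the 5′ edge of the span, known to 1 kb, and the region around it reached 2 kb to each side. The upstream and downstream flanks are the rest of the window before the start and past the end of the gene. Flanks can hold other genes, and no peak was assigned to a gene by its position in one.

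H3K27ac differed unequally across the 7 windows. Covered length over all windows was 335 kb for DMSO against 255 kb for ACBI, a ratio of 0.761, and 68.1% of the DMSO-covered bases were also covered in ACBI, against 44.3% over the whole lists. It was higher in ACBI at IL7R alone, almost level at CISH, and lower at SOCS2, STAT5B, BCL2, PIM1 and JAK1. The order of the ratios was IL7R 1.10, CISH 0.969, SOCS2 0.734, STAT5B and BCL2 0.649, PIM1 0.621 and JAK1 0.555. With 1 library per condition the order carries no spread, so neighbours in it cannot be told apart.

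**Figure D1:**
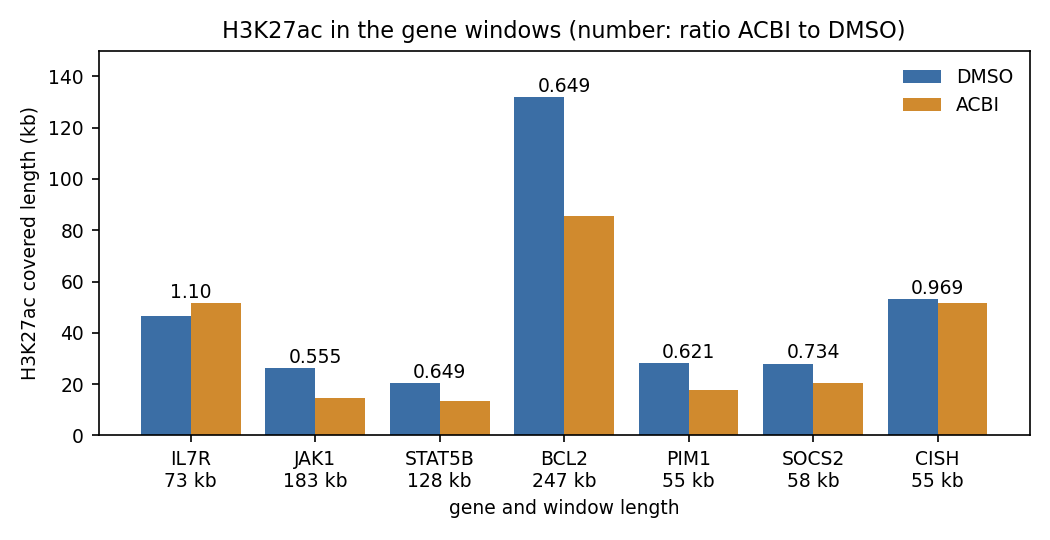
H3K27ac covered length in kb (vertical axis) in DMSO and in ACBI for each gene window (horizontal axis, with the window's length), 1 library per bar and no error bar. The number over each pair is the ratio of ACBI to DMSO, from 0.555 at JAK1 to 1.10 at IL7R.

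The background for these ratios was the genome in tiles of 100 kb with at least 5000 bp under DMSO H3K27ac. Their median ratio was 0.498, with quartiles of 0.338 and 0.665. Of these 6184 tiles, 50.3% had a ratio under 0.5 and 4.16% a ratio above 1. No window of the 7 fell under 0.5. The IL7R ratio was at or above that of 97.9% of tiles, the CISH ratio at or above 95%, and the SOCS2 ratio at or above 82.5%. STAT5B and BCL2 stood at 73.0%, PIM1 at 69.7% and JAK1 at 59.6%. Tile ratios went with density: among the 553 tiles with at least 40% under DMSO H3K27ac the median was 0.676, and 7.23% had a ratio above 1. Against these dense tiles IL7R stood at 98.7%, CISH at 90.1%, SOCS2 at 61.7%, BCL2 at 45.2% and PIM1 at 41.6%. These 5 windows are themselves that dense, so BCL2, PIM1 and SOCS2 sat in the middle of the dense tiles and IL7R near their top. The tiles were not matched further: the 5 windows were 55 to 247 kb long and 48.3% to 96.9% covered in DMSO. CISH, at 96.9%, had little room for a ratio above 1. JAK1 and STAT5B, with 14.3% and 16.1% of their windows covered in DMSO, are sparser than the dense tiles.

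**Figure D2:**
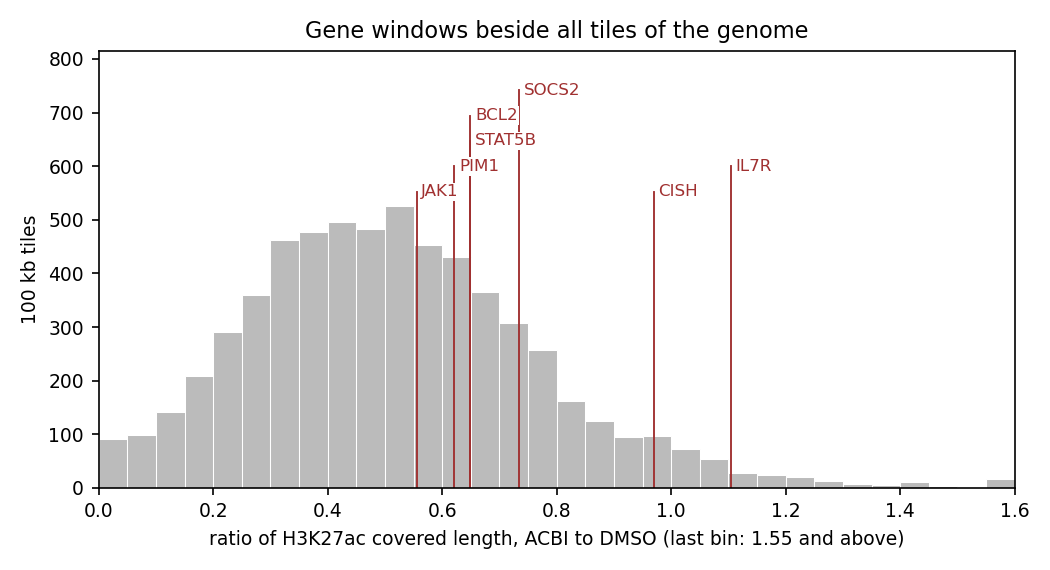
Number of 100 kb tiles (vertical axis) by the ratio of H3K27ac covered length, ACBI to DMSO (horizontal axis), in grey, with the 7 gene windows as red lines whose height has no meaning. IL7R and CISH lie in the right tail, while the other 5 lie between 0.555 and 0.734, above the tile median of 0.498.

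IL7R, the chain of the receptor that gives interleukin-7 its specificity, kept almost all the bases under its H3K27ac peaks, whose height is not known. Its window on chromosome 5 had 46685 bp (64.0%) under H3K27ac in DMSO and 51568 bp (70.6%) in ACBI. Of the DMSO bases 99.0% were covered in ACBI, 482 bp were covered in DMSO only and 5365 bp in ACBI only. No peak was lost and none gained. The added length lay mainly in the gene body, which had 16266 bp covered in DMSO against 20309 bp in ACBI, or 77.5% and 96.7% of that region. There a single ACBI peak of 19877 bp (35852226 to 35872102) joined 3 DMSO peaks, the widest of 12019 bp, and so filled the gaps between them. The 4 kb around the gene start were covered throughout in both lists, and the downstream flank was covered at 97.3% and 95.8%.

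The factor peaks of IL7R were split between the start and a cluster past the gene's end. RUNX1 without BRG1 lay over the start, as a peak of 554 bp (35856761 to 35857314) at the edge of an H3K4me3 peak of 4596 bp. All 4 BRG1 peaks lay in the downstream flank, 4.9, 6.7, 20.1 and 22.6 kb past the gene's end, and each overlapped a RUNX1 peak. The widest, of 821 bp (35884491 to 35885311), lay in a RUNX1 peak of 1954 bp (35884117 to 35886070), and the others, of 319, 393 and 263 bp, overlapped RUNX1 peaks of 381, 918 and 492 bp. A RUNX1 peak of 349 bp without BRG1 stood between the last 2 pairs. Every one of the 10 factor peaks was wholly under H3K27ac in both lists, and those past the gene's end lay in domains of 15646 and 21389 bp in DMSO, against 15428 and 21803 bp in ACBI. The gene next to IL7R on that side in RefSeq is CAPSL, and the cluster was assigned to neither gene.

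**Figure D3:**
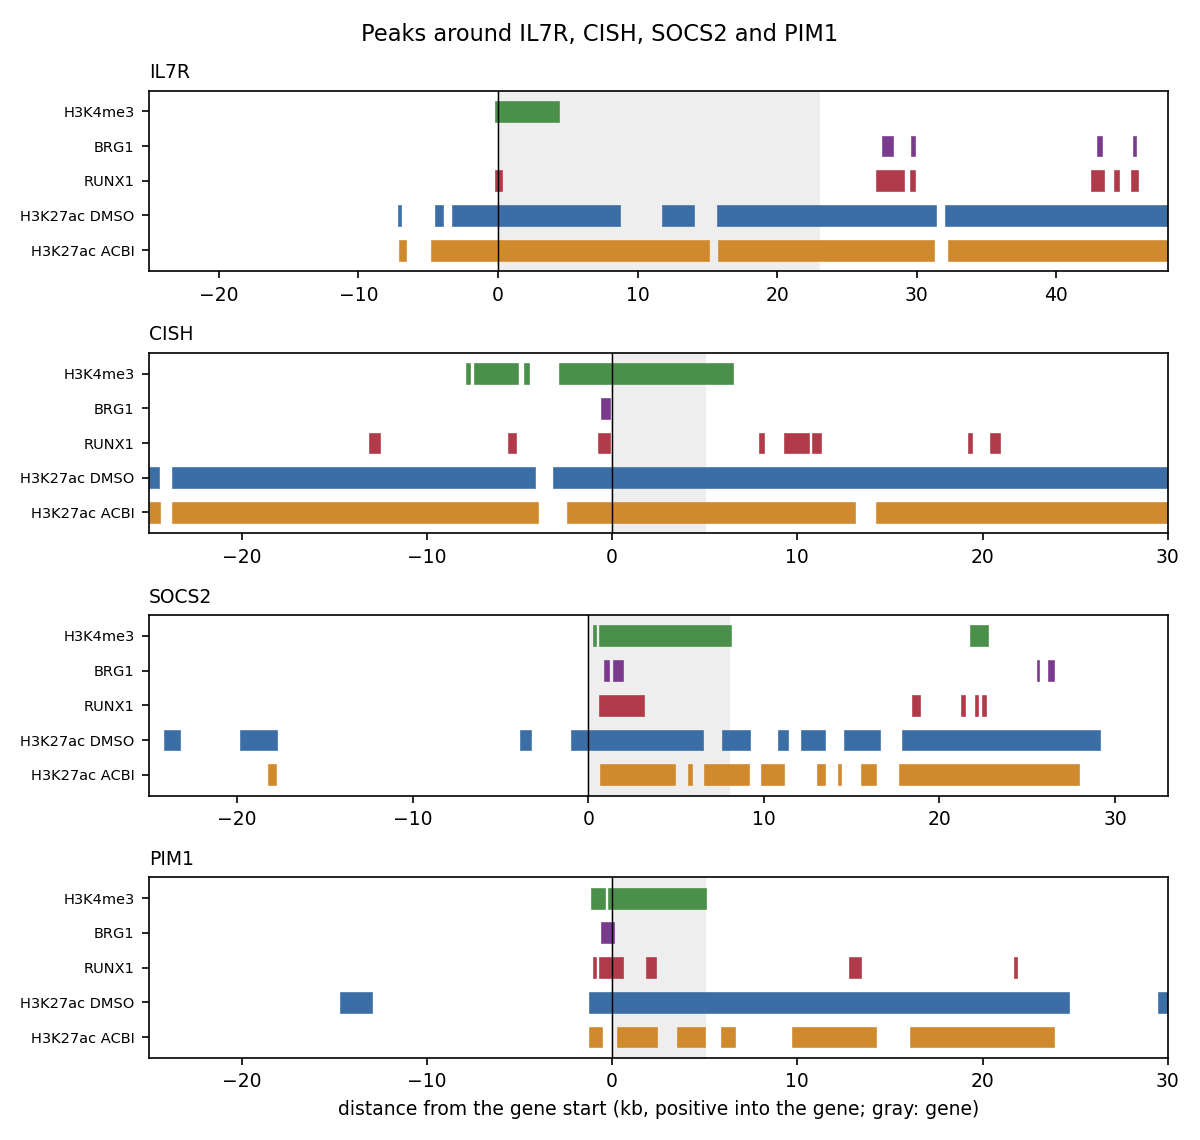
Peaks of the 5 lists (1 row per list) in the windows of IL7R, PIM1, SOCS2 and CISH, by distance from the gene start in kb along the gene's direction. Each box is 1 peak and the gene's span is marked. Nearly all bases under DMSO H3K27ac at IL7R and CISH are also under ACBI H3K27ac. The DMSO domain over the gene is cut into 6 pieces at PIM1 and 2 at CISH, while 1 ACBI peak joins 3 DMSO peaks at IL7R.

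JAK1, the kinase bound to the IL7R chain and to many other cytokine receptors, had the lowest share of its window under H3K27ac and lost 13 of its 26 DMSO peaks, where 59.1% of all DMSO peaks were lost. DMSO covered 26143 bp (14.3% of the window on chromosome 1) and ACBI 14513 bp (7.93%), and 34.3% of the DMSO bases were kept, below the 44.3% of the whole lists. Of the 12 ACBI peaks 1 was gained, 359 bp wide, where 21.4% of all ACBI peaks were gained. The widest lost peaks were of 2501 bp (65304452 to 65306952) and 1567 bp. The ratio of 0.555 was close to that of the whole lists, 0.556, with 17183 bp covered in DMSO only and 5553 bp in ACBI only.

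The H3K27ac of JAK1 was concentrated at the far end of the gene. Dividing the gene into 3 parts of 44.3 kb, the part nearest the start was covered at 13.8% in DMSO and 5.51% in ACBI, the middle part at 2.61% and 1.16%, and the last part at 40.7% and 24.8%. The last part held 16 of the DMSO peaks and 18055 of the covered bp, including the widest DMSO peak of 3048 bp, 63.0% of which ACBI covered. The start itself went the other way, with 1123 bp under the DMSO list against 1358 bp under the ACBI list. All JAK1 factor peaks lay at the start: BRG1 peaks of 221 bp (65432008 to 65432228) and 250 bp (65432458 to 65432707), and a RUNX1 peak of 555 bp over the first of them, on an H3K4me3 peak of 1910 bp. The BRG1 peak of 250 bp was the single BRG1 peak of the 7 windows outside DMSO H3K27ac, and 81 bp of it (32.4%) were under the ACBI peak.

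STAT5B, the transcription factor that carries the signal to the nucleus, had fewer bases under H3K27ac in ACBI at the start, in the body and past the end. It had slightly more in the upstream flank (734 bp in DMSO, 1002 bp in ACBI). On chromosome 17 DMSO covered 20544 bp (16.1%) and ACBI 13328 bp (10.4%), with 55.3% of the DMSO bases kept. Of 13 DMSO peaks 5 were lost (38.5%, against 59.1% of all DMSO peaks), the widest of 875 and 662 bp. Of 12 ACBI peaks 1 was gained, of 807 bp, where 21.4% of all ACBI peaks were gained. The widest DMSO peak, of 5643 bp (40341214 to 40346856) past the gene's end, was covered at 74.1% by ACBI peaks. At the start the DMSO peak of 1901 bp faced an ACBI peak of 1023 bp. In the last of 3 equal parts of the gene DMSO covered 8570 bp and ACBI 3229 bp, while in the middle part they covered 1501 and 2943 bp.

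STAT5B was the single gene of the 7 where no BRG1 peak overlapped RUNX1. BRG1 peaks of 307 bp (40427796 to 40428102) and 392 bp (40428222 to 40428613) lay at the start on an H3K4me3 peak of 2022 bp, with no RUNX1 peak. Its 3 RUNX1 peaks, of 332, 175 and 175 bp, lay in the downstream flank and the gene body, without BRG1. One of the narrow pair, at 40374389 to 40374563, was under H3K27ac in DMSO over 102 bp (58.3%) and not in ACBI. It was the single factor peak of all 7 windows that had H3K27ac in DMSO and none in ACBI. The other narrow peak was under neither list. STAT5A, the paralog that works beside STAT5B, is the upstream neighbour in RefSeq and was not measured as a member.

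**Figure D4:**
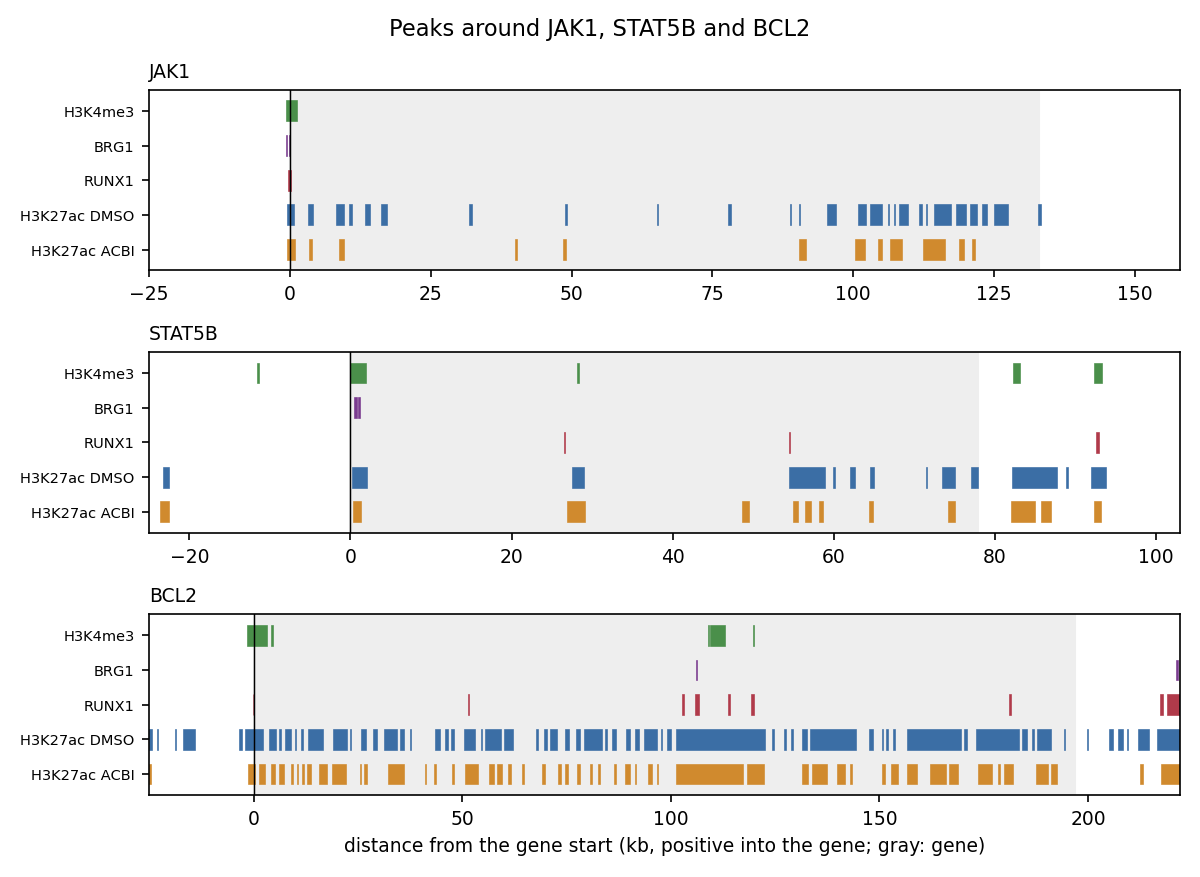
Peaks of the 5 lists (1 row per list) in the windows of JAK1, STAT5B and BCL2, by distance from the gene start in kb along the gene's direction. Each box is 1 peak and very narrow peaks look slightly wider than scale. JAK1 has H3K27ac mainly near the far end of the gene, and BCL2 has it along the whole gene with the widest domain over 100 kb inside.

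BCL2, the inhibitor of apoptosis, had the longest window, of 247 kb, and the most H3K27ac of the 7 genes in bp. On chromosome 18 DMSO covered 132011 bp (53.4%) and ACBI 85705 bp (34.7%), and 56.3% of the DMSO bases were kept. Of 62 DMSO peaks 28 were lost (45.2%, against 59.1% of all DMSO peaks). Of 51 ACBI peaks 5 were gained, the widest of 1449 and 532 bp, where 21.4% of all ACBI peaks were gained. The widest lost peak, of 2728 bp (61001123 to 61003850), lay 15.5 kb upstream of the start, and the next was of 1760 bp. The upstream flank had the lowest ratio of the BCL2 regions, 0.0797, with 4504 bp against 359 bp, while the gene body had 113136 against 77954 bp. At the start, where DMSO had a peak of 4250 bp, the 4 kb region was covered whole in DMSO and over 2296 bp (57.4%) in ACBI.

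The factors at BCL2 lay mostly inside the gene and past its end. No BRG1 peak lay at the start, where a RUNX1 peak of 176 bp (60987064 to 60987239) stood on an H3K4me3 peak of 4858 bp. A BRG1 peak of 162 bp (60880670 to 60880831) lay 106.2 kb inside the gene in a RUNX1 peak of 978 bp, within the widest DMSO peak of the window. That domain of 21404 bp (60864311 to 60885714) held 4 of the 9 RUNX1 peaks and an H3K4me3 peak of 3595 bp, and ACBI peaks of 16025 and 4132 bp covered 94.2% of it. A BRG1 peak of 358 bp (60765530 to 60765887) in a RUNX1 peak of 3159 bp lay 24.3 kb past the gene's end, in an H3K27ac peak of 6897 bp in DMSO, against 4516 bp in ACBI. The widest domain was thus kept nearly whole, but the next widest were not. DMSO peaks of 13162, 10910 and 10368 bp in the gene body were covered at 64.1%, 56.0% and 54.8%, each by 3 ACBI peaks. The 28 lost peaks were all narrower than these. Of the 57724 bp covered in DMSO only at BCL2, 39747 bp lay in kept peaks.

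PIM1, the survival kinase, kept 2 of its 3 DMSO peaks, both in pieces, where 59.1% of all DMSO peaks were lost. One of the 2, of 14319 bp (37167492 to 37181810), crossed the window's edge with 509 bp inside. Those 509 bp were not under ACBI H3K27ac, so this peak counted as kept only by overlap outside the window. On chromosome 6 DMSO covered 28194 bp (51.3%) and ACBI 17522 bp (31.9%), and only 17 bp were covered in ACBI alone. A DMSO domain of 25936 bp (37136749 to 37162684) ran over the gene and past it, and 6 ACBI peaks of 738, 2171, 1514, 778, 4542 and 7779 bp together covered 67.5% of it. The single lost peak, of 1749 bp, lay 13.8 kb upstream.

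One of the gaps fell on the factor site at the PIM1 start. A BRG1 peak of 679 bp (37137397 to 37138075) lay there in a RUNX1 peak of 1332 bp (37137275 to 37138606), on H3K4me3 peaks of 735 and 5263 bp. Both were wholly under H3K27ac in DMSO, while in ACBI 73 bp (10.8%) of the BRG1 peak and 553 bp (41.5%) of the RUNX1 peak were covered. Peak positions do not measure the height of H3K27ac there. The other 4 RUNX1 peaks of PIM1, of 175, 526, 650 and 191 bp, had no BRG1.

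SOCS2, an inhibitor induced by STAT5, had lower coverage in ACBI, but not in every part of its window. On chromosome 12 DMSO covered 27997 bp (48.3%) and ACBI 20559 bp (35.4%), and 65.1% of the DMSO bases were kept. Around the start the lists covered 2990 and 1314 bp, in the upstream flank 3672 and 480 bp, and in the downstream flank 16409 and 14211 bp. Of 9 DMSO peaks 2 were lost (22.2%, against 59.1% of all DMSO peaks), of 900 and 637 bp. Of 9 ACBI peaks 1 was gained, of 180 bp, where 21.4% of all ACBI peaks were gained. These regions read SOCS2 on the plus strand. The 4 kb around its other edge went the opposite way, with 2162 bp under DMSO peaks against 2682 bp under ACBI peaks, and with that edge as the start the ratio around all 7 starts was 0.877 in place of 0.778.

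BRG1 at SOCS2 lay near the start and in the downstream flank. Peaks of 311 bp (93963881 to 93964191) and 541 bp (93964426 to 93964966) lay near the start in a RUNX1 peak of 2537 bp (93963621 to 93966157), the second widest RUNX1 peak of the 7 windows, on an H3K4me3 peak of 7522 bp. They were under an H3K27ac peak of 7505 bp in DMSO, against 4241 bp in ACBI. The other BRG1 peaks, of 150 and 310 bp, lay 17.6 and 18.4 kb past the gene's end without RUNX1, and 4 RUNX1 peaks of 209 to 440 bp lay near them without BRG1. All of these were in a domain of 11240 bp in DMSO and 10298 bp in ACBI, 89.8% of which was shared.

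CISH, the other STAT5-induced inhibitor, had the highest share of its window under H3K27ac peaks and kept nearly all of those bases. Its window on chromosome 3 was covered over 53283 bp (96.9%) in DMSO and 51637 bp (93.9%) in ACBI, with 96.5% of the DMSO bases kept and no peak lost or gained. The DMSO domain over the gene, of 45895 bp (50606297 to 50652191, past the window's edge), was covered at 95.8% by ACBI peaks of 28392 and 15596 bp. The gene start and the gene body were covered whole in both lists. A BRG1 peak of 464 bp (50649138 to 50649601) lay at the start in a RUNX1 peak of 650 bp (50649107 to 50649756), on an H3K4me3 peak of 9351 bp, the widest of the 7 windows. The other 7 RUNX1 peaks had no BRG1, and the widest of them, of 1329 bp (50638398 to 50639726), lay past the gene's end. In RefSeq gene order CISH lies between MAPKAPK3 and HEMK1, and how far the window reaches into them was not examined.

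**Figure D5:**
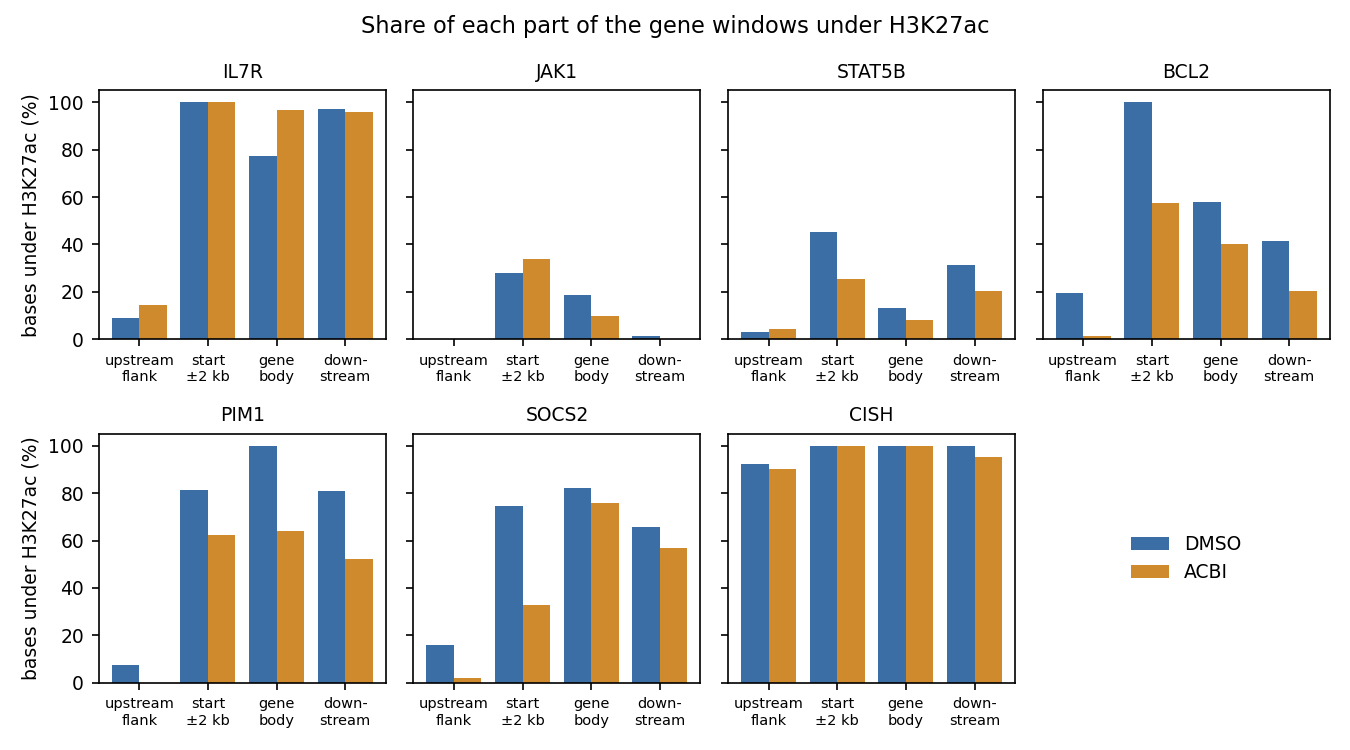
Percent of each region under H3K27ac (vertical axis) in DMSO and in ACBI, for the gene start (4 kb), the gene body and the flanks of each gene, 1 library per value. IL7R and CISH starts are at 100% in both lists, while the BCL2 start goes from 100% to 57.4% and the SOCS2 start, read from its lower edge, from 74.8% to 32.9%, a direction that flips at its upper edge.

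Over all windows, peaks without a BRG1 or RUNX1 peak accounted for every lost peak. Of 122 DMSO peaks 49 were lost (40.2%, exact Clopper-Pearson 95% interval 31.4 to 49.4), against 59.1% of all DMSO peaks. Of 98 ACBI peaks 8 were gained (8.16%, 3.59 to 15.5), against 21.4% of all ACBI peaks, and none of the 8 held a factor. With only the widest DMSO peaks, as many as ACBI had, the share lost was 26.5% and the share gained 18.4%, against 40.7% and 30.4% in the whole lists. Where 50% of a peak had to be covered they were 57.4% and 23.5%, against 75.6% and 32.4%. The 18 DMSO peaks with a BRG1 or RUNX1 peak were all kept, where a count of 0 allows a share lost of up to 16.7% (3 counts of the total), and 20.5% of such peaks were lost in the whole list. The 15 DMSO peaks on H3K4me3 were all kept too, with a limit of 20.0% on the same rule, and 14.5% of such peaks were lost in the whole list. Of the 104 peaks without a factor 49 were lost (47.1%). In the whole list the lost share of peaks without a factor is above the 59.1% of all DMSO peaks, because those with a factor were lost at 20.5%. The 47.1% is therefore below the share of the whole list. Intervals and limits cover counting error only, and neighbouring peaks are not independent. Shares of single genes were given no interval and are not read as differences from the whole list.

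Width moved with these classes, and its part in the result was not tested. DMSO peaks with a factor had a median width of 10804 bp in the windows and 2057 bp in the whole list, while those without one had a median of 856.5 bp in the windows. Lost peaks had a median of 556 bp and kept peaks 1689 bp. A wide peak needs only 1 shared base to count as kept, so loss of length inside kept peaks was counted as well. Of the 106912 bp covered in DMSO only, 33794 bp (31.6%) lay in lost peaks and 73118 bp in peaks that were kept but narrowed or split. The genes differed here: lost peaks held 59.7% of that length at JAK1, 31.1% at BCL2, 24.7% at STAT5B, 16.4% at PIM1 and 15.7% at SOCS2. More than 1 ACBI peak overlapped 17 DMSO peaks: 10 of 62 at BCL2, 2 of 13 at STAT5B, 2 of 3 at PIM1, 2 of 3 at CISH and 1 of 9 at SOCS2. At PIM1 and CISH 1 of the 2 had only 509 and 514 bp inside the window and was split outside it. The share of split peaks over the whole DMSO list was not computed, so these counts have no background.

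Nearly all factor sites of the windows overlapped H3K27ac in both lists. Most factor peaks of the whole lists were under DMSO H3K27ac too, 6844 of 7445 for BRG1 and 16667 of 19893 for RUNX1. Of the 16 BRG1 peaks of the windows 15 were under H3K27ac in DMSO and 16 in ACBI. None of the 15 lost it, which allows a share of up to 20.0% by 3 counts of the total and 21.8% by the exact interval. In the whole BRG1 list 23.7% of the peaks under DMSO H3K27ac had none in ACBI. Of 37 RUNX1 peaks 36 were under H3K27ac in DMSO and 35 in ACBI, and 1 of the 36 lost it (2.78%, 0.0703 to 14.5), against 23.9% in the whole RUNX1 list. These counts need 1 shared base. When 50% of the factor peak had to be covered, 1 of 15 BRG1 peaks (6.67%, at PIM1) and 2 of 36 RUNX1 peaks (5.56%, at STAT5B and PIM1) lost H3K27ac, against 28.3% and 28.1% in the whole lists. The H3K27ac peaks at these sites were wide in DMSO, with a median of 11240 bp at BRG1 and 20483.5 bp at RUNX1, against 2331 and 2489 bp at such peaks of the whole lists. Several factor peaks also share a domain, so they are not separate trials.

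BRG1 and RUNX1 overlapped at 6 of the 7 genes. Of the 16 BRG1 peaks 11 overlapped RUNX1 (68.8%, 41.3 to 89.0), against 80.7% of all BRG1 peaks, and of the 37 RUNX1 peaks 10 overlapped BRG1 (27%, 13.8 to 44.1), against 29.8% of all RUNX1 peaks. Both intervals hold the value of the whole list. By place, 8 BRG1 peaks lay at a gene start, 1 in a gene body and 7 in a downstream flank, and 8 lay on H3K4me3. RUNX1 had 7 peaks at a start, 9 in a body, 2 in an upstream flank and 19 in a downstream flank, and 13 lay on H3K4me3. BRG1 lay at the starts of JAK1, STAT5B, PIM1, SOCS2 and CISH and at neither the IL7R nor the BCL2 start, where RUNX1 stood without it.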

How the data were processed

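The authors deposited each of the 5 peak lists as positions and peak names in hg19, with no score or read count, so the values used here are positions and lengths. The submitters' processing notes name MACS2 and SEACR. RUNX1 peaks came from MACS2, and H3K27ac peaks of both conditions are broad peaks at q below 0.01, per the file headers. No aligner, other threshold, use of controls or pooling is given in the sources used here, so peaks of different targets are not comparable in number. Spike-in signal tracks named in the headers were not used here.

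Overlaps and covered lengths were computed in Python 3.11.15 with numpy 2.4.6, intervals with scipy 1.17.1, figures with matplotlib 3.10.9. They were checked against bedtools 2.31.1 and tested on simulated lists. The genes, lists and windows were chosen with earlier results of these data known. Per window, the rule named all BRG1 peaks with the RUNX1 peaks that overlap them, the widest RUNX1 and DMSO H3K27ac peaks, the H3K27ac peak at the start, and the 2 widest lost and gained peaks; others were chosen after their values were seen. No hg19 genome or annotation was used, so the pathway list and the markers of the cell line were not examined. Strands, promoters and gene order came from RefSeq (GRCh38.p14), except the SOCS2 strand, which is textbook knowledge. The equal parts of long genes and the dense tiles were added after seeing the data.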

Additional observations from a re-analysis of the deposited data

How the results depend on the processing

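No paired analysis was possible because each group has 1 library. The 7-window ratio of covered length, 0.761, was 0.730, 0.745, 0.747 and 0.699 with flanks of 0, 10, 50 and 100 kb, 0.754 with peaks of at least 500 bp, 0.752 with neighbouring peaks merged and 0.794 with as many of the widest DMSO peaks as there were ACBI peaks. With that equal number of peaks the ratio of the whole lists rose too, from 0.556 to 0.618. Leaving out 1 gene at a time gave a ratio for the windows of 0.705 (without IL7R) to 0.834 (without BCL2). IL7R stayed above 1 in 7 of 7 alternatives (1.04 to 1.22), and CISH was at 0.909 or above. These alternatives reuse the same DMSO and ACBI libraries, so they are not separate support. At IL7R all of them contain bases of the ACBI peak of 19877 bp that joins 3 DMSO peaks. The share of lost peaks, 40.2%, was 57.4% when 50% of a peak had to be covered and 26.5% with that equal number of peaks; the gained share, 8.16%, was 23.5% and 18.4%. Without flanks there were 6 BRG1, 13 RUNX1 and 13 H3K4me3 peaks, and with 100 kb 63 RUNX1 peaks. Around the starts the ratio of 0.778 was 0.748 within 1 kb, 0.819 within 5 kb and 0.877 with SOCS2 read from its upper edge, an alternative added after seeing the data. With 50% of a factor peak covered, 15 BRG1 and 36 RUNX1 peaks were under H3K27ac in DMSO and 14 and 34 in ACBI. The ratio for the windows together stayed below 1 in all of these. Unknown depth limits every difference between DMSO and ACBI.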

Other observations

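With flanks of 100 kb the windows took in more factor sites. The IL7R window then held 7 BRG1 peaks, all 7 with RUNX1, and 15 RUNX1 peaks, 14 of them under H3K27ac in DMSO and 13 in ACBI, and its ratio of covered length was 1.04. PIM1 went the other way, with 84625 bp in DMSO and 44569 bp in ACBI, a ratio of 0.527, while its 12 RUNX1 peaks were all under H3K27ac in both lists. At STAT5B, 7 of 8 RUNX1 peaks were under H3K27ac in DMSO and 4 in ACBI, and the ratio was 0.567. In the whole RUNX1 list 23.9% of the peaks under DMSO H3K27ac had none in ACBI, and counts this small cannot set a gene apart. JAK1 gained no factor peak and no H3K27ac from the wider flanks. The BCL2 window held 10 RUNX1 peaks, all 10 under H3K27ac in both lists, with a ratio of 0.612.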
